A study of Hydra vulgaris with 99 samples.

Results

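The 48 h regenerating tip of decapitated Hydra vulgaris was set against the mature head, to describe which transcripts the tip still lacked and which it held in excess. The samples were 6 of the 99 RNA-seq libraries of the study: 3 libraries of apical-regenerating tips, taken 48 h after a cut at the 80% level of the body axis, and 3 libraries of apical regions from uncut animals. Both groups came from the Jussy strain, fed 3 times a week and otherwise untreated. Each library was a biological replicate made of tissue pooled from 20 to 25 animals, so differences between single animals are not seen. For comparison, the study holds the same tips at 0 to 36 h, apical and basal tips regenerating from the 50% (mid-gastric) level, intact animals, and feet (basal disk with lower peduncle), with 3 libraries per group and all from Jussy animals. The age of the animals is not given in the sources used here.

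Hydra is a small freshwater cnidarian with a tube-shaped body. Its head consists of a mouth cone, the hypostome, surrounded by a ring of tentacles, and the body column below it ends in an adhesive foot. Tentacle ectoderm is made largely of battery cells, differentiated epithelial cells that hold mounted stinging cells, whereas stem cells, developing stinging cells and digestive gland cells are concentrated in the body column. After decapitation the tissue at the wound, formerly upper body column, sets up a new head organizer, a process in which Wnt signalling is known to act, and later grows tentacles. The 48 h tip is therefore regenerating tissue compared with a structure that is continuously renewed in an uncut animal.

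The 6 libraries held between 30241824 and 38813190 reads, within the range of 26401348 to 54273942 over all libraries. Their mean Pearson correlation with the replicates of their own group was 0.960 to 0.979 across 12417 transcript sequences, which are not independent replicates. A transcript sequence is one entry of the authors' transcriptome, and a locus is the group of entries to which its identifier assigns it. None of the 79774 identifiers matched the RefSeq gene table at hand (0 matches), so functions and gene names are not given, and the head label was not checked against known head markers. Of the 54272 sequences tested, 85.7% lay in loci with several sequences, among which the counting could split reads. Single sequences of such loci are therefore uncertain.

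At 48 h the tip still differed from the head in 4918 sequences, 9.06% of those tested. Of these, 2052 (3.78%) were lower and 2866 (5.28%) were higher in the tip. A difference was called where edgeR's quasi-likelihood test, fitted over all 99 libraries, gave a Benjamini-Hochberg adjusted p below 0.05 and the log2 fold change was 1 or more in size. These are bulk samples, in which fewer cells of a type and less RNA per cell cannot be told apart. The excess of higher over lower calls depended on the method. The newer edgeR method gave 2921 higher and 3514 lower calls, the 6 libraries fitted alone gave 2359 and 2869, and counts summed per locus gave 1318 and 1332.

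The lower sequences were well expressed in the head. Their median level was 12.0 CPM (reads per library scaled to a common total) in the head and 3.71 CPM in the tip, and their median log2 fold change was -1.55, with quartiles of -2.20 and -1.24. At least 4-fold lower were 626 of them, and 135 were at least 16-fold lower. Over all tested sequences the median level was 1.08 CPM in the head and 1.06 CPM in the tip. The higher sequences had a median of 1.32 CPM in the head, close to that of all tested, and 5.29 CPM in the tip. Their median log2 fold change was 1.88, with quartiles of 1.33 and 2.62, and 1282 were at least 4-fold and 133 at least 16-fold higher. In these 4 counts the 103 lower and 208 higher sequences with no more than 3 reads in one group were set to the fold that 3 reads allow, and the medians were then -1.55 and 1.87. Across all tested sequences the median log2 fold change was 0.01. Each list was called from the levels in these libraries, which favours high head levels in the lower list and low ones in the higher list. The contrast between the lists in head level is therefore a description.

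**Figure D1:**
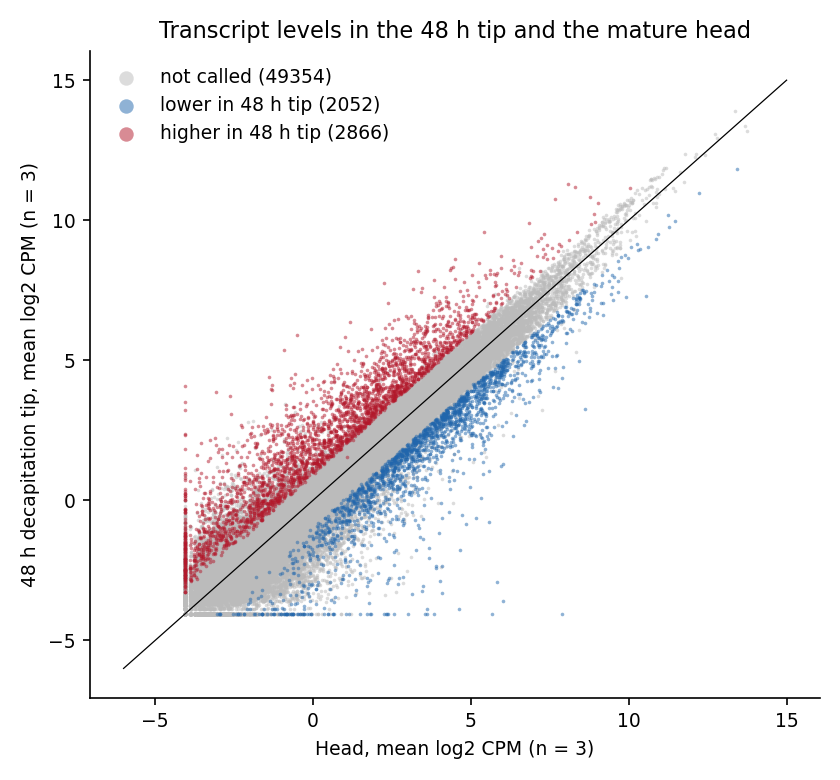
Each point is one transcript sequence, with its mean log2 CPM in the 3 head libraries on the horizontal axis and in the 3 libraries of the 48 h tip on the vertical axis; the line marks equal levels. The 2866 higher sequences (red) have a median of 1.32 CPM in the head and 5.29 CPM in the tip. The 2052 lower sequences (blue) have a median of 12.0 CPM in the head and 3.71 CPM in the tip.

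The tips were separate from the heads in every replicate, but head replicate B stood apart from A and C. The median over the lower sequences, relative to the mean of the heads on the log2 scale, was -1.57, -1.56 and -1.48 in tip replicates A, B and C, and 0.13, -0.21 and 0.08 in the heads. Over the higher sequences it was 1.90, 1.67 and 1.73 in the tips and -0.10, 0.31 and -0.16 in the heads. Head replicate B thus lay nearest to the tips in both lists. It gave 3.21% of its reads to the higher list, against 2.194% in head replicate A and 2.225% in C. Since the sequences were called from these libraries, the separation itself is a description.

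Lower sequences came from 1426 loci and higher sequences from 1838, and 73 loci held both. Of the 975 loci with a lower sequence and at least 2 tested, 91 had every tested sequence lower. On the higher side this held for 156 of 1312 loci. When the reads of a locus were summed, 2650 of 20883 loci were called, with a median log2 fold change of -1.53 for the lower and 1.68 for the higher loci.

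The lower sequences took 13.7% ± 1.19 of the reads in heads (SD, n = 3) and 4.52% ± 0.171 in 48 h tips. At 0 h they took 3.13% ± 0.121, and in intact animals 5.25% ± 0.486. The higher sequences took 2.54% ± 0.578 in heads, 8.71% ± 0.578 in 48 h tips and 13.9% ± 0.660 in 0 h tips. Intact animals gave 12.0% ± 0.953 and feet 10.7% ± 0.340 for that list. Seen this way, the 48 h tip lay between the cut surface and the head for both lists. The higher list was nearer to the head in the 48 h tip than in intact animals or feet. For the lower list intact animals were nearer to the head than the 48 h tip, and feet were at 4.30% ± 0.357.

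**Figure D2:**
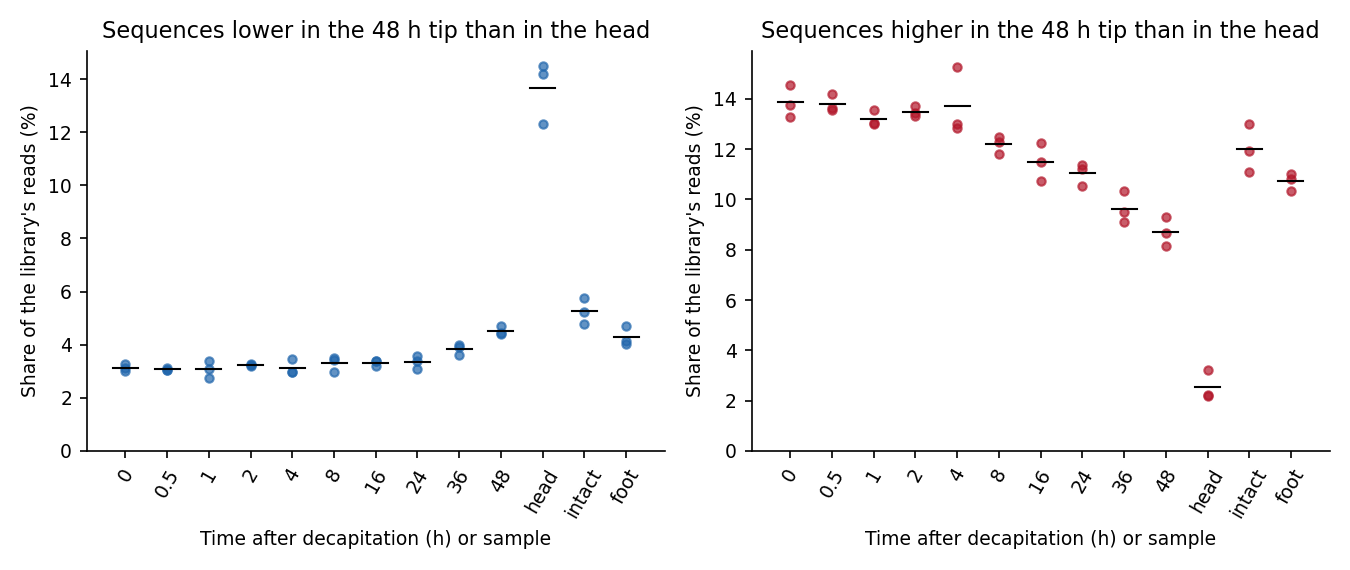
Share of each library's reads (percent, vertical axis) in the 2052 lower (left) and 2866 higher (right) sequences, for decapitation tips by hour and for heads, intact animals and feet; points are libraries and bars are means of 3. The lower list stays near 3.13% early and reaches 4.52% at 48 h against 13.7% in heads, and the higher list descends from 13.9% to 8.71% against 2.54% in heads.

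Most of the transcripts abundant in the head were not called, but a larger share than over all sequences was lower. Of the 100 sequences highest in the head, 16 were lower and 1 was higher in the tip, and 83 were not called. Of the top 500, 91 (18.2%) were lower and 10 (2.00%) higher, against 3.78% and 5.28% of all tested sequences. Ranking by the 48 h tip instead gave 21 lower (4.20%) and 54 higher (10.8%) among its top 500. Each ranking favours the group that made it.

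Fewer sequences differed from the head late than early. The tip at 0 h differed from the head in 10776 sequences (19.9%), of which 4854 were higher and 5922 lower. After 0.5 h the number called was 9976 (18.4%), after 1 h 10058 (18.5%), after 2 h 9946 (18.3%) and after 4 h 10437 (19.2%). The 8 h tip had 9311 calls (17.2%), the 16 h tip 8723 (16.1%) and the 24 h tip 9437 (17.4%). The 36 h tip had 6636 (12.2%), with 3466 higher and 3170 lower, and the 48 h tip 4918. Counts up to 24 h thus stayed between 8723 and 10776, and those at 36 and 48 h were below all of them. All these comparisons share the 3 head libraries.

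**Figure D3:**
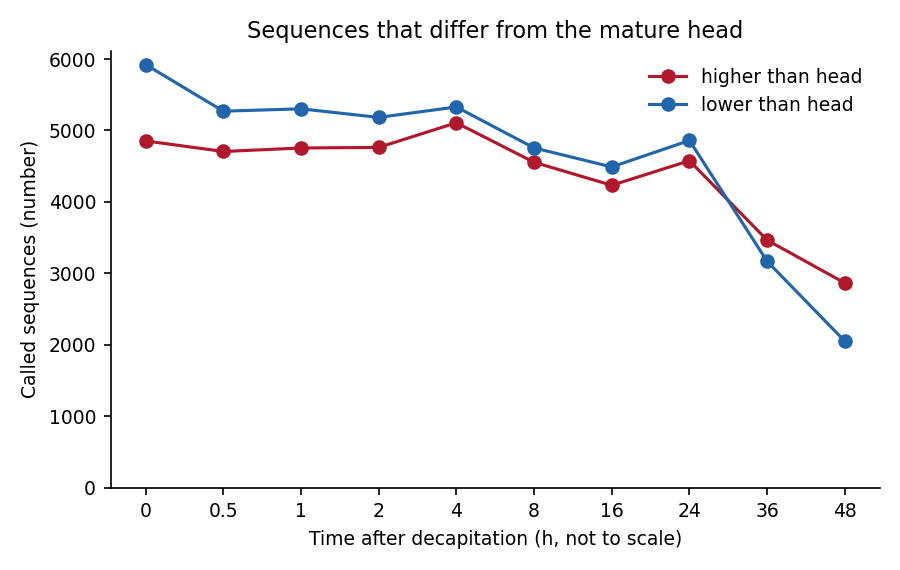
Number of sequences called higher (red) or lower (blue) than in the head (vertical axis) in decapitation tips at each time after the cut (horizontal axis, hours, not to scale). At 0 h lower calls (5922) outnumber higher calls (4854), and at 48 h the order is the opposite, with 2052 against 2866.

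The tips of 36 h and 0 h, none of which enter the comparison of the 48 h tip with the head, show which of these sequences had changed by 36 h. Of the 2052 lower sequences, 280 (13.6%) rose between 0 and 36 h, compared with 2.20% of all tested sequences. A further 28 fell, and 1744 were not called. These 280 made up 23.4% of the 1196 sequences that rose. Of the 2866 higher sequences, 271 (9.46%) fell by 36 h, compared with 1.00% of all tested. They made up 49.9% of the 543 sequences that fell. Another 64 higher sequences (2.23%, against the same 2.20% of all tested) rose, and 2531 were not called. The median log2 change from 0 to 36 h was 0.33 over the lower list, -0.50 over the higher list and 0.07 over all tested sequences. At 0 h the median level was 1.07 log2 CPM in the lower list, 2.95 in the higher list and -0.22 over all tested sequences. Sequences with few reads are harder to call, so the shares of all tested, here and below, are not matched for level. How much of the gaps follows from level was not tested.

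The 280 sequences that had risen and were still lower than in the head had a median level of 0.33 log2 CPM at the cut. It was 1.15 after 16 h, 1.65 after 24 h, 2.27 after 36 h and 2.75 in the 48 h tip. In the head it was 4.69, and in the foot 0.82. Of the 280, 262 had their highest mean among the tips at 48 h. The 1744 lower sequences not called by 36 h stayed between 1.21 and 1.28 log2 CPM through 24 h and stood at 1.45 at 36 h and 1.71 at 48 h, against 3.37 in the head. Of the 1744, 903 had their highest tip mean at 48 h. Of the 135 sequences at least 16-fold below the head, 132 belonged to this second group and 1 to the first. The second group makes up 85.0% of the lower list and the first 13.6%. Of the 103 lower sequences with no more than 3 reads in one group, 102 were in the second group and 0 in the first. Sequences with so few tip reads can hardly be called as risen, so this split is partly fixed by the classes.

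The higher sequences that had fallen started at a median of 4.31 log2 CPM at 0 h and reached 3.13 at 36 h and 3.04 at 48 h, with 0.98 in the head. Their level was 4.17 in intact animals and 3.63 in feet. They were picked for lying above the head at 48 h, so the low level of the head is a description. The 2531 higher sequences not called by 36 h went from 2.84 at 0 h to 2.31 at 48 h, while the head stood at 0.28. For 1323 of all 2866 higher sequences the lowest tip mean was the one at 48 h. The 64 that had risen were picked for lying above their start at 36 h and above the head at 48 h, so that order is a description. They went from 0.86 log2 CPM at 0 h to 3.09 at 24 h, stood at 2.63 at 48 h, and lay at 0.74 in the head. The highest tip mean was that of 24 h for 24 of the 64, that of 36 h for 15 and that of 48 h for 11.

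**Figure D4:**
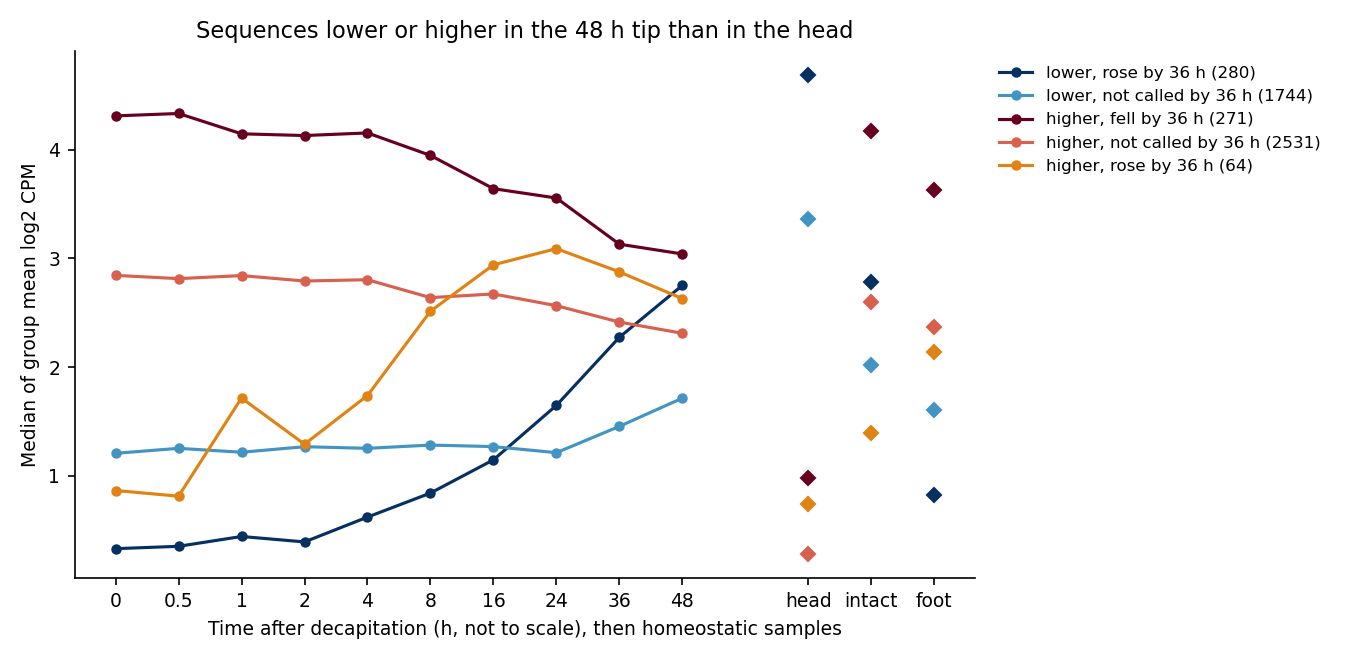
Median of the group mean log2 CPM (vertical axis) for sequences called lower or higher in the 48 h tip than in the head, split by their call between 0 and 36 h; lines follow the decapitation tips and diamonds show heads, intact animals and feet. Lower sequences that rose (dark blue) climb to 2.75 at 48 h against 4.69 in the head, and the 64 higher sequences that rose (orange) are highest at 24 h (3.09).

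Calls against the 0 h tip at earlier times place these changes. At 4 h, 28 lower and 28 higher sequences had risen (1.36% and 0.977% of their lists, against 0.545% of all tested). At 8 h the numbers were 25 and 32 (1.22% and 1.12%, against 0.553%). At 16 h they were 56 and 54 (2.73% and 1.88%, against 0.903%), and at 24 h 120 and 64 (5.85% and 2.23%, against 1.37%). In these fits the numbers of risers in both lists were nearly equal up to 16 h, and at 24 h and 36 h more of them were in the lower list. These times share the 0 h libraries, and the numbers depended on single replicates. All calls of the 4 h comparison went from 350 to 215 without replicate A and 159 without C, and those of 8 h from 339 to 206 and 185. Those of 16 h went from 583 to 296 without A, and those of 24 h from 962 to 507 without A and 627 without C.

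Between 24 and 36 h only 44 sequences rose in all (0.0811% of those tested), and 28 of them (63.6%) were among the 2052 still lower than the head at 48 h, or 1.36% of that list. The median change of the 44 in the 48 h tip relative to the head was -1.22 on the log2 scale. That comparison had 50 calls in either direction, which became 7 without replicate B and 8 without replicate C.

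A stricter view takes sequences that were silent at the cut and present in the head. Below 1 CPM in all 3 tips at 0 h and at 10 CPM or more in all 3 heads were 125 sequences from 101 loci, with a median of 25.1 CPM in heads. None of them reached 10 CPM in all 3 libraries of a group up to 4 h. After 8 h 1 had done so, after 16 h 2, after 24 h 9 and after 36 h 20, and the 48 h tip had 39. Their median level was 0.156 CPM at the cut, 0.570 after 16 h, 1.22 after 24 h, 3.45 after 36 h and 6.31 in the 48 h tip. At 48 h 13 of them were still below 1 CPM in every tip, and 69 of the 125 were called lower than in the head. Of the 39 switched on, 10 were called lower, 28 were not called and 1 was higher than in the head. The mid-gastric apical tip at 48 h had 33 of the 125 on, the basal tip 6, the foot 5 and intact animals 20. These sequences were picked for their low start and high end, so their direction is a description.

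In the opposite direction 21 sequences were at 10 CPM or more in all 0 h tips and below 1 CPM in all heads. By 48 h 3 of them were still at 10 CPM or more in all tips and 1 was below 1 CPM in all. Their median went from 18.8 CPM at 0 h to 10.8 at 36 h and 8.03 at 48 h.

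Within the comparison itself, 15 sequences from 9 loci were below 1 CPM in all 48 h tips and at 10 CPM or more in all heads, where their means ranged from 12.3 to 243 CPM. All 15 were also below 1 CPM in the 36 h tips and in the mid-gastric apical tips of 48 h. The reverse pattern was seen for 3 sequences from 2 loci, which had 16.2 to 21.7 CPM in the tip and at most 0.599 CPM in the head.

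Sequence seq09605_loc04603_vl0313446 had the largest difference among lower sequences that had not risen by 36 h. The heads held 269, 161 and 299 CPM. All 3 tips of 48 h held 0 reads. With the floor of 3 reads over the 3 tips this is at least 8590-fold lower in the tip (adjusted p = 3.53e-16, edgeR). Intact animals, which include a head, had 54.6 ± 18.3 CPM (SD, n = 3), feet 0.164 ± 0.152, and tips of every time and cut no more than 0.124 on average. Its locus has 7 sequences, of which 4 were tested and all 4 were lower.

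Among the sequences still lower despite a rise, the largest difference was that of seq78073_loc25451_vl0019558. The 48 h tips held 5.02, 4.89 and 4.80 CPM and the heads 109, 58.9 and 79.8 CPM, with no overlap. The log2 fold change was -4.07 (SE 0.503, adjusted p = 5.35e-10, edgeR). The decapitation tips had 0.802 ± 0.470 CPM at 0 h, 1.81 ± 0.571 at 24 h and 3.76 ± 0.981 at 36 h (SD, n = 3). The change from 0 to 36 h was 2.24 on the log2 scale (SE 0.492, adjusted p = 0.00089, edgeR). The mid-gastric tips at 48 h had 1.64 ± 0.451 CPM apically and 0.213 ± 0.0773 basally, a log2 difference of 2.94 (SE 0.562, adjusted p = 6.96e-05, edgeR). Of 15 tested sequences in its locus, 13 were lower in the tip.

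The sequence most in excess without a rise was seq74057_loc24450_tr0358224, the only sequence of its locus. The 48 h tips held 76.6, 49.6 and 57.4 CPM and the heads 0.478, 1.17 and 0.474 CPM. The log2 fold change was 6.39 (SE 0.288, adjusted p = 9.62e-29, edgeR), and 7.00 without head replicate B. The 0 h tips had 131 ± 39.8 CPM, intact animals 245 ± 46.0 and feet 195 ± 26.7 (SD, n = 3). The head was the only group below 10 CPM, and the 48 h tip had the lowest mean of the others. From 0 to 36 h it changed by -0.97 on the log2 scale (adjusted p = 0.00101, edgeR), just short of the limit of 1.

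The largest excess among the sequences that rose was that of seq69930_loc23338_tr0660170. The 48 h tips held 66.1, 34.0 and 150 CPM and the heads 3.37, 1.73 and 7.52 CPM, again without overlap but with a wide spread in both groups. The log2 fold change was 4.32 (SE 0.822, adjusted p = 2.27e-05, edgeR). It was 3.58 without tip replicate C and 5.04 without head replicate C. The tips had 25.3 ± 31.3 CPM at the cut, 281 ± 183 after 4 h, 433 ± 141 after 8 h, 650 ± 102 after 24 h and 304 ± 32.7 after 36 h (SD, n = 3). The 48 h tip did not differ from the 0 h tip beyond the threshold (log2 difference 1.72, SE 0.726, adjusted p = 0.13, edgeR). Basal mid-gastric tips also held it, with 405 ± 87.8 CPM at 8 h, and feet had 195 ± 34.1 CPM. Intact animals had 46.1 ± 38.8 CPM, against 4.21 ± 2.99 in heads. Already at 0 h it was called higher than in the head (log2 fold change 2.60, SE 0.773, adjusted p = 0.00558, edgeR). Its 0 h tips held 12.7, 60.9 and 2.28 CPM, which overlap the heads. Of the 4 sequences of its locus, all tested, it was the only one higher.

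**Figure D5:**
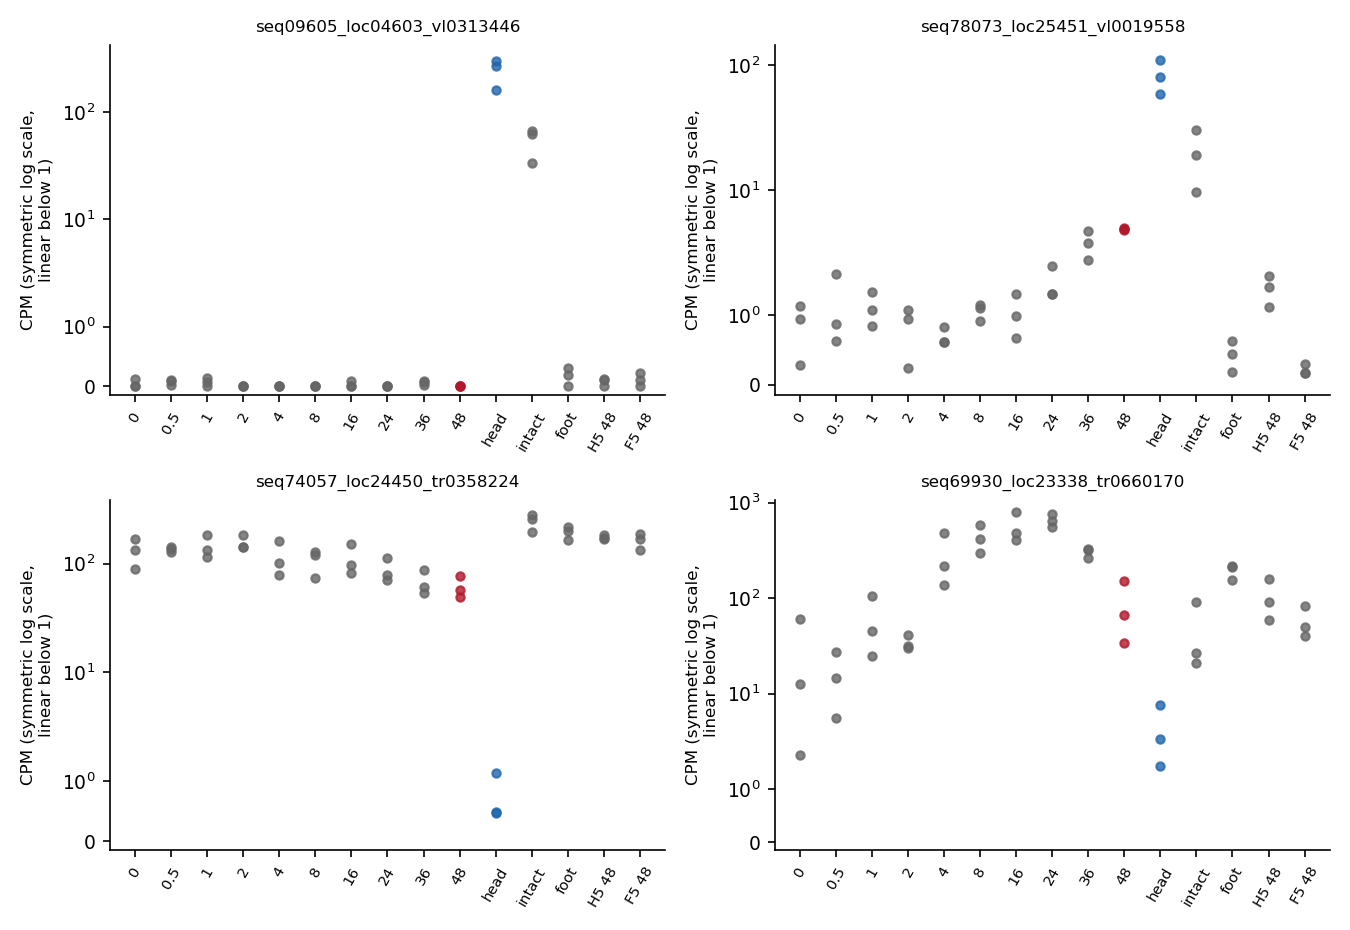
CPM in each library (vertical axis, logarithmic above 1 and linear below) of the 4 named sequences in decapitation tips by hour, in heads, intact animals and feet, and in apical (H5) and basal (F5) mid-gastric tips of 48 h; red marks the 48 h decapitation tip and blue the head. The first sequence is at 0 in all 48 h tips, the second climbs to 4.90 on average against 82.4 in heads, the third is low in heads alone (0.707), and the fourth is highest at 24 h (650).

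Samples that took no part in the comparison give the levels of these transcripts elsewhere on the body axis. Intact animals include a head, so sequences high in heads can be lower in feet than in intact animals through that alone. Feet against intact animals also cannot tell the head from the body column. In feet against intact animals, 3.63% of all tested sequences were lower and 2.35% higher. Of the 280 lower sequences that rose by 36 h, 182 (65.0%) were lower in feet and 14 (5.00%) higher, with a median log2 difference of -1.91 against 0.05 over all sequences. Of the 1744 not called by 36 h, 408 (23.4%) were lower in feet and 98 (5.62%) higher. The 64 higher sequences that rose had the opposite bias, with 23 (35.9%) higher in feet and 3 (4.69%) lower. Of the 271 higher sequences that fell, 75 (27.7%) were lower in feet and 6 (2.21%) were higher. The 2531 higher sequences not called by 36 h, most of that list, had 213 (8.42%) lower and 92 (3.63%) higher in feet.

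The mid-gastric tips allowed the same split by polarity, since both arise at the same level. At 48 h, 2.59% of all tested sequences were higher in the apical than in the basal tip and 2.08% were lower. Of the 280 lower sequences that rose, 183 (65.4%) were higher in the apical tip and 11 (3.93%) lower, with a median log2 difference of 1.59 against -0.01 over all sequences. For the 1744 not called by 36 h these numbers were 153 (8.77%) and 105 (6.02%). The 64 higher sequences that rose were divided, with 19 (29.7%) higher apically and 12 (18.8%) higher basally. The 271 that fell had 2 (0.738%) higher apically and 33 (12.2%) higher basally. The 2531 higher sequences not called by 36 h had 40 (1.58%) higher apically and 129 (5.1%) higher basally.

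The apical tip from the mid-gastric cut, which starts lower on the body axis, differed from the head in 6604 sequences at 48 h (12.2%), against 4918 for the decapitation tip. Both counts share the heads. Over the 2052 lower sequences its median log2 fold change from the head was -1.80, and over the 2866 higher ones 2.07. The corresponding medians of the decapitation tip, from which the lists were drawn, were -1.55 and 1.88. Compared directly, the apical tips of the 2 cuts differed in 119 sequences (0.219%), 65 higher and 54 lower after decapitation. The 119 calls became 34 without replicate B and 58 without replicate C.

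As a single measure, each library was projected on the line from the mean 0 h tip to the mean head in log2 CPM, so that these means are 0% and 100%. The 48 h tip stood at 47.8% ± 7.34 of the distance (SD, n = 3) and the 36 h tip at 36.6% ± 6.05. The mid-gastric apical tip of 48 h stood at 40.3% ± 7.79 and the basal one at 25.7% ± 6.29. Intact animals were at 36.2% ± 5.55 and feet at 36.8% ± 1.64. The 0.5 h tip was already at 15.4% ± 6.96. The 0 h tips and heads define the line with their own noise included, so a position is not the share of the head regained. The 48 h tip was 11.2 points above the 36 h tip (two-sided exact permutation test, p = 0.2, adjusted 0.25 over 5 comparisons). It was 7.52 points above the mid-gastric apical tip (exact p = 0.3, adjusted 0.3), 11.6 above intact animals (exact p = 0.2, adjusted 0.25) and 10.9 above feet (exact p = 0.1, adjusted 0.25). The smallest p that 3 against 3 libraries can give is 0.1, so these tests cannot pass a threshold of 0.05 and decide nothing about the differences. They also took no account of the replicate letter. For A, B and C the 48 h tips stood at 39.4, 50.8 and 53.1%. The mid-gastric apical tips were at 31.4, 43.4 and 46% and the 36 h tips at 31.8, 34.6 and 43.4%. Replicate A was lowest in these groups, whereas B was lowest in the 0 h and 24 h tips. The difference from the head, -52.2 points, is a description, since the heads and the 0 h tips define the scale. With the 5000 most abundant sequences alone, the 48 h tip stood at 32.0% ± 4.34, the 36 h tip at 25.0% ± 3.48 and the 0.5 h tip at 2.96% ± 1.90. The mid-gastric apical tip was then at 24.9% ± 3.57, feet at 27.5% ± 3.63 and intact animals at 14.9% ± 4.08, so that positions and the order of the other samples depended on which sequences were used.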

How the data were processed

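The authors deposited raw read counts per transcript sequence, from polyA-selected RNA in directional libraries, per the labels' protocols. Cutadapt 1.11, Salmon 0.7.2 and DESeq2 are named per the submitters' processing notes, with no role given, and the reference transcriptome is not given in the sources used here. A second deposited table, used in one alternative, holds the authors' normalized signal, which is the counts scaled by 1 factor per library.

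The tests ran in edgeR 4.0.16 under R 4.3.3 (filterByExpr over the 33 groups, TMM, trended dispersion, older quasi-likelihood method), which left 54272 sequences with 99.9% of the reads. All 99 libraries were fitted with 1 coefficient per group. Benjamini-Hochberg adjustment was made within each contrast. CPM use TMM-scaled library sizes, with a prior count of 2 on the log2 scale. Fits with a replicate block or without a library kept the dispersion trend and TMM factors and re-estimated the quasi-likelihood dispersion. Alternatives used DESeq2 1.42.0 and limma 3.58.1, and figures matplotlib. The procedure was tested on simulated data.

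The named sequences were, in each of 4 classes (lower or higher at 48 h, with or without a rise by 36 h), the one with the largest fold change among those with no overlap between groups and at least 32 CPM in the higher group. The comparison, lists and classes were chosen with earlier results of these data known. The contrasts of the 8, 16, 24 and 48 h tips with the 0 h tip, and the sequences switched on or off, were added after the data had been seen. Gene lists and cell type markers could not be looked up by these identifiers and are not analysed here.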

Additional observations from a re-analysis of the deposited data

Results flagged for a closer look

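For seq74057_loc24450_tr0358224 the excess over the head differed between the apical tips of 48 h. The level was 61.2 ± 13.9 CPM after decapitation and 175 ± 6.60 CPM after the mid-gastric cut (SD, n = 3), and a direct test of the tips gave a log2 difference of -1.515 (SE 0.218, adjusted p = 7.1e-06, edgeR). The 3 decapitation tips were below all 3 mid-gastric tips. The tips of these cuts already differed in level at 0 h, with 131 ± 39.8 CPM after decapitation and 481, 477 and 429 CPM in the 3 mid-gastric libraries. The cause was not tested.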

How the results depend on the processing

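Calls of the 48 h tip against the head numbered 4178 to 6435 with RLE factors, DESeq2, no filter, the newer edgeR method, limma or the 6 libraries alone (with and without a replicate block), and 4189 to 5188 without each library in turn. They were 2650 with counts summed per locus, 10365 (6267 higher, 4098 lower) with no fold minimum and 1934 (1304 higher, 630 lower) at a log2 fold change of at least 2. Counts per locus gave 1318 higher and 1332 lower, and the newer edgeR method gave 3514 lower. No sequence was called in the opposite direction in any of these fits that kept the sequences. The 6 libraries alone, with 41057 sequences tested, kept 94.1% of the lower but 76.0% of the higher calls. With a replicate block added they kept 85.0% and 63.5%. RLE factors, DESeq2, no filter, the newer edgeR method and limma kept 92.3 to 100% of the lower and 87.1 to 95.7% of the higher calls. Without each library in turn, 1539 to 1892 lower and 2313 to 2615 higher calls were kept. The share of higher among all calls was 58.3%, and 45.4% with the newer edgeR method, 45.1% with the 6 libraries alone and 49.7% per locus. The cause was not tested. The replicate block gave 5053 calls. Deviations of same-letter 48 h tips and heads correlated at -0.04, -0.04 and 0.00, so no pairing by letter was seen between these groups. Whether the letters pair libraries of other groups, such as the tips whose positions are given by letter above, was not tested. With the block, 36 h against 0 h gave 1839 calls. Smaller comparisons moved more. The 36 h against the 24 h tip gave 252 calls with DESeq2, 194 with the newer edgeR method and 7 to 75 without one replicate. Against the 0 h tip, the 4 h tip gave 622 calls with DESeq2 and 159 to 429 without one replicate, the 8 h tip 639 and 185 to 306, and the 16 h tip 968 and 296 to 436. The 24 h tip gave 507 to 810 and the 48 h tip 1890 to 2634 without one replicate. The alternatives for 8, 16, 24 and 48 h were chosen after seeing the data. Decapitation against the mid-gastric tip at 48 h gave 249 with DESeq2, 197 with the newer edgeR method and 34 to 98 without one replicate. The position of the 48 h tip was 45.5 to 49.7% without one replicate and 32.0% with the 5000 most abundant sequences. The named sequences kept their direction and call in every fit that held them. The remaining comparisons of earlier or mid-gastric tips with the head, of 36 h with 0 h, of feet with intact animals and of apical with basal mid-gastric tips stayed within 1.5 times. With 3 libraries per group, smaller differences may have been missed.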
